A study of Mus musculus with 6 samples.

Results

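Colony-stimulating factors are the secreted proteins that keep myeloid cells alive and set what they become, and 6 genes of this system were followed here: the ligand gene Csf1 and the receptor genes Csf1r, Csf2ra, Csf2rb, Csf2rb2 and Csf3r. They were taken by symbol from the 41388 genes of each deposited table, and all 6 were found and had enough reads to be tested. The data are RNA-seq of sorted cell populations, foamy and non-foamy macrophages taken from the intimal layer of the aorta of ApoE -/- mice on the C57BL/6 strain, which carry no apolipoprotein E and form atherosclerotic plaques. The series design gives 6 mice fed a Western diet for 28 weeks. Both groups share the genotype, strain, diet and sort for CD64 and CD11b. Live cells bright for a BODIPY lipid dye and with strong side scatter were taken as foamy. Those dim for the dye and with weak scatter were taken as non-foamy. Each group has 3 libraries, the labels used here give no age and do not say how the mice were divided among libraries, and p-values therefore rest on how far these libraries vary among themselves, which may be technical.

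M-CSF, the product of Csf1, binds the receptor tyrosine kinase encoded by Csf1r, which interleukin-34 also binds and on which most tissue macrophages depend for survival. GM-CSF binds a receptor made of its own alpha chain, encoded by Csf2ra, and the common beta chain, encoded by Csf2rb, which the interleukin-3 and interleukin-5 receptors use too and which signals through the kinase JAK2 and the factor STAT5. Mice carry a further beta chain gene, Csf2rb2, whose product serves interleukin-3. G-CSF acts through the receptor encoded by Csf3r, which is best known from neutrophils.

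Total counts in genes were between 18592421 and 24279802 in foamy libraries and between 15628627 and 24619075 in non-foamy libraries. All 9 macrophage markers examined, Csf1r among them, were present, and their summed level was 50442 to 54447 deposited CPM (counts scaled to library size) in foamy and 27857 to 37923 in non-foamy libraries. Lyz2, Cd68 and C1qb made up most of each sum. Lyz2 had 30660, 32364 and 30716 deposited CPM in foamy and 12708, 17769 and 16273 in non-foamy libraries. Cd68 and Mertk were also higher in every foamy library. Adgre1 went the other way, with 465, 375 and 471 in foamy and 933, 1042 and 841 in non-foamy libraries, as did Csf1r and Itgam. The other markers overlapped between the groups. Fcgr1, which encodes CD64, had means of 232 ± 44.8 CPM in foamy libraries and 182 ± 52.9 CPM in non-foamy ones, and Itgam, which encodes CD11b, means of 77.8 ± 7.82 CPM in foamy macrophages and 142 ± 13.2 CPM in non-foamy ones (TMM-normalized, SD, n = 3 each). Markers of smooth muscle summed to 2.72 to 25.3 CPM in foamy libraries and 4.57 to 27.6 CPM in non-foamy ones, and those of endothelium to 9.47 to 12.8 (foamy) and 14.97 to 17.7 CPM (non-foamy). Those of T, NK and B cells summed to 0.68 to 4.53 (foamy) and 0.47 to 9.6 CPM (non-foamy), and those of mast cells and basophils to at most 0.11 (foamy) and 0.7 CPM (non-foamy). In bulk libraries, fewer cells of a type and less RNA per cell cannot be told apart. Below, levels of single genes are TMM-normalized CPM, and marker sums and levels named as deposited are scaled to total counts alone. All 6 genes are annotated as protein-coding, with coordinates on GRCm38, and counts were taken over their exons together.

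Csf1r had the lowest adjusted p of the members and was lower in foamy macrophages. Of the other receptor genes, Csf2rb2 was called higher, and Csf2ra, Csf2rb and Csf3r were not called. Of the 6 members, 1 was called higher (Csf2rb2) and 1 lower (Csf1r) at an adjusted p of 0.05 in edgeR's quasi-likelihood test, against 2.5% of the 11303 genes tested called higher and 2.9% called lower (5.41% in either direction). In TMM-normalized CPM, the 3 foamy values lay entirely above the 3 non-foamy values in 4 members, entirely below them in 1, and overlapped them in 1. Such separation upwards was seen in 12.4% of all genes tested, and downwards in 13.3% (25.7% in either direction). In deposited CPM, scaled to total counts alone, the groups overlapped in Csf2ra, Csf2rb and Csf2rb2, and remained apart in Csf3r and Csf1r. Fold changes are given as foamy over non-foamy. Their log2 median was 0.87 over the members and -0.04 over all genes tested.

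**Figure D1:**
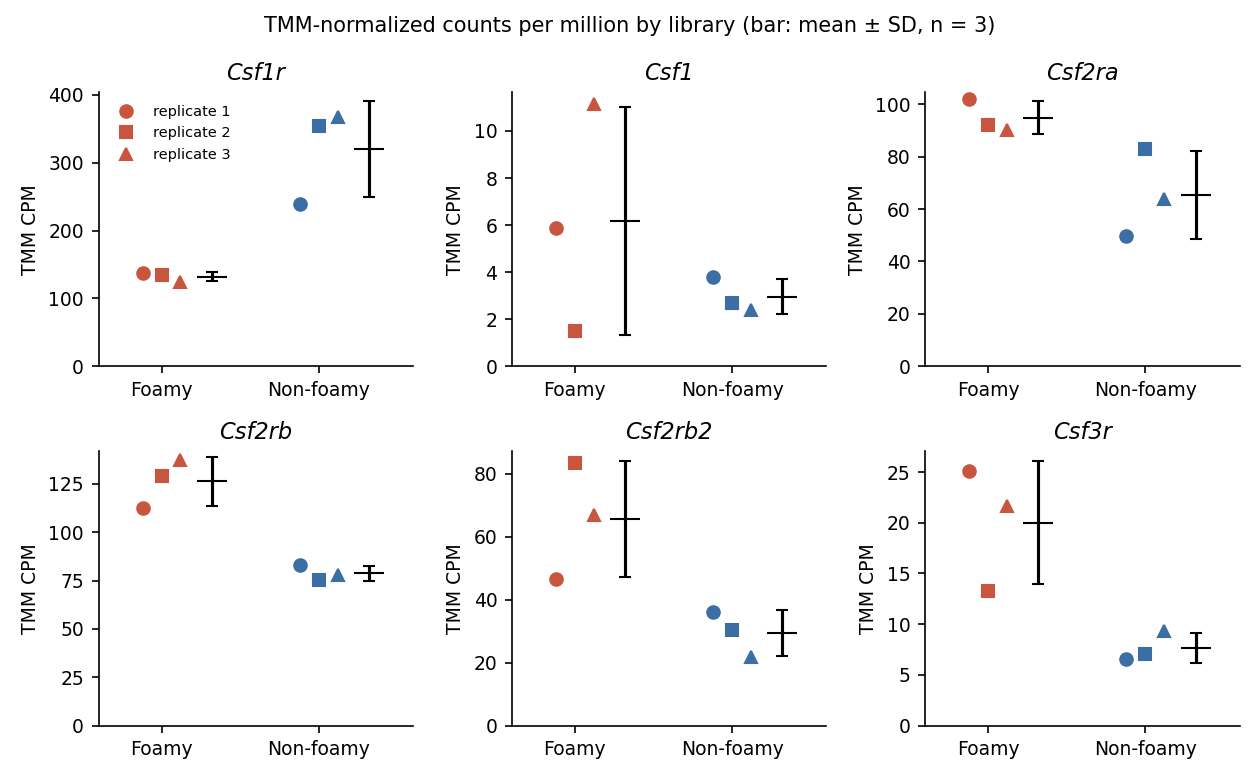
TMM-normalized CPM (linear axis from 0) of each gene in the 3 foamy (left, red) and 3 non-foamy (right, blue) libraries, with the symbol giving the replicate and the bar the mean ± SD. Csf1r lies between 124 and 138 CPM in foamy libraries, below all non-foamy values, whereas Csf2ra, Csf2rb, Csf2rb2 and Csf3r lie above theirs and the foamy values of Csf1 span those of the non-foamy group.

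Csf1r (ENSMUSG00000024621) lies on chromosome 18 of GRCm38 from 61105572 to 61132149 on the plus strand. It had 138, 134 and 124 CPM (TMM-normalized) in foamy replicates 1 to 3, against 238, 353 and 368 CPM in non-foamy replicates 1 to 3. The foamy libraries sit close together, and all lie below non-foamy replicate 1, the lowest of its group. The means were 132 ± 6.95 CPM in foamy libraries and 320 ± 70.8 CPM in non-foamy ones (SD, n = 3), a log2 fold change of -1.28 (SE 0.20, edgeR adjusted p = 0.0043). The gene was called under all 15 alternative settings tried, with log2 fold changes from -1.53 to -1.15.

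Other measured facts stand beside the Csf1r difference. The summed level of 9 monocyte markers, all with reads, was 17.2 to 28.4 CPM in foamy libraries and 412 to 717 CPM in non-foamy ones. That of 7 dendritic cell markers was 0.29 to 15.4 CPM in foamy libraries and 34.6 to 275 CPM in non-foamy ones, with Cd209a making up most of the non-foamy sums. Among the markers, Plac8 of monocytes, picked out after its values were seen, had 0, 0.05 and 0 deposited CPM in foamy libraries and 28.5, 24.2 and 25.6 CPM in non-foamy ones, and Xcr1 of dendritic cells stayed under 1 CPM in every library. Clec9a of dendritic cells went the other way, with 0, 1.18 and 1.6 deposited CPM in foamy libraries and 0 in every non-foamy library. It too was picked out after its values were seen. The part of monocytes and dendritic cells in the Csf1r difference was not tested. Of the 4885 exon bases of Csf1r, 871 (17.8%) overlap exons of Hmgxb3 on the opposite strand in the deposited tables, and the strand setting of the counting is not given. Hmgxb3 had at most 32 counts in a foamy and 58 in a non-foamy library. Csf1r had at least 2303 in a foamy and 4403 in a non-foamy library. These counts cannot show whether reads over the shared bases were left out of Csf1r, since how such reads were counted is not given. The level of Csf1r per exon length, used below, is uncertain to that extent.

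Csf1, the ligand gene, was the member with the fewest reads and the widest spread relative to its mean. Csf1 (ENSMUSG00000014599, chromosome 3, 107741048 to 107760469, minus strand) had 124, 27 and 207 raw counts in the foamy libraries, and 70, 49 and 61 in the non-foamy libraries. In TMM-normalized CPM these are 5.88, 1.504 and 11.2 in foamy, against 3.79, 2.70 and 2.40 in non-foamy libraries. Foamy replicate 3 is the highest of all libraries and foamy replicate 2 the lowest, so the groups overlap. The log2 fold change was 1.06 with an SE of 0.73 and an edgeR adjusted p of 0.50, and it was 1.53 without foamy replicate 2 and 0.33 without foamy replicate 3. Fibroblasts also make M-CSF. Fibroblast markers summed to 2.9 to 151 CPM in foamy libraries and 10.7 to 315 CPM in non-foamy ones. Lum, the fibroblast marker that led the sum in foamy replicate 3, had 3.29, 1.08 and 118 deposited CPM in foamy replicates 1 to 3 and 84.1, 2.49 and 24.5 CPM in non-foamy replicates 1 to 3. Within the foamy group Lum and Csf1 were both highest in replicate 3. Dcn, another fibroblast marker, had 0.70, 0.48 and 21.3 deposited CPM in foamy libraries, against 47.2, 4.51 and 274 CPM in non-foamy libraries. It was highest in non-foamy replicate 3, which had the lowest Csf1 of its group. Lum and Dcn were picked out after their values were seen. The part of fibroblast RNA in the Csf1 values was not tested.

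The other ligands of these receptors were at or near 0 in both populations. Csf2, the GM-CSF gene, had 3, 0 and 0 counts in foamy and 1, 9 and 0 counts in non-foamy libraries. Csf3, the G-CSF gene, had 1, 0 and 0 counts in foamy and 1, 0 and 1 in non-foamy libraries. Il34, which encodes the other ligand of the Csf1r product, had 0, 0 and 1 counts in foamy and 2, 1 and 0 in non-foamy libraries. None of these was tested. A count of 0 allows up to 3 counts, or 0.122 to 0.192 CPM by library. Il3 had no read in foamy libraries and 1, 1 and 0 in non-foamy libraries, Il5 none in foamy libraries and 1, 2 and 0 in non-foamy libraries, and the interleukin-5 receptor gene Il5ra had none in any of the 6. Among receptors of related growth factors, Flt3 had 2, 4 and 0 counts in foamy and 94, 2 and 4 in non-foamy libraries, and Kit, the stem cell factor receptor gene, had 0, 1 and 0 in foamy and 39, 0 and 8 in non-foamy libraries. Ptprz1, which encodes a further receptor of interleukin-34, had 0, 3 and 0 counts in foamy and 9, 5 and 3 in non-foamy libraries. In Flt3 and Kit, non-foamy replicate 1 held most of the reads.

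Csf2ra (ENSMUSG00000059326, chromosome 19, 61224402 to 61228418, minus strand), the gene of the GM-CSF receptor alpha chain, had 102, 92.2 and 90.2 CPM in foamy libraries, against 49.6, 82.8 and 63.9 CPM in non-foamy libraries. All foamy values are higher on this scale. In deposited CPM, Csf2ra had 88.5, 89.0 and 81.0 in foamy libraries, against 58.5, 89.2 and 65.9 in non-foamy libraries, so non-foamy replicate 2 was the highest of all. The log2 fold change of 0.53 (SE 0.23) did not pass the test (edgeR adjusted p = 0.24). Scaled by total counts alone it was 0.27.

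Csf2rb and Csf2rb2, the beta chain genes, are near copies. Csf2rb (ENSMUSG00000071713) lies on chromosome 15 from 78325990 to 78351000 on the plus strand, and Csf2rb2 (ENSMUSG00000071714) from 78282517 to 78305603 on the minus strand. In GENCODE M21 transcripts their coding sequences share 95.2% of 2628 aligned bases, with identical runs of up to 242 bases. Of all distinct 50-base windows, the read length here, 12.3% of those of Csf2rb also occur in Csf2rb2, and 18.4% of those of Csf2rb2 in Csf2rb. The most diverged ungapped stretch of 60 coding bases is shown to let the remaining differences be seen. It spans bases 304 to 363 of the Csf2rb and 307 to 366 of the Csf2rb2 coding sequence, counted from the start codon, and capitals mark its 13 mismatches.
Csf2rb: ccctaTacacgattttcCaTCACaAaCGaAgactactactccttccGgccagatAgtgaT
Csf2rb2: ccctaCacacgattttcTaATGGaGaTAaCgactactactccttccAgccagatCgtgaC
Reads from such a stretch tell the genes apart, while a read inside a shared run does not, and how such reads were counted is not given. The separate values of the 2 genes are uncertain to that extent.

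Csf2rb2 had 46.6, 83.3 and 67.0 CPM in foamy libraries, against 36.2, 30.3 and 21.7 CPM in non-foamy libraries. Every foamy library is above every non-foamy one on this scale, with foamy replicate 1 nearest to them. In deposited CPM the groups overlap, with 40.4 in foamy replicate 1 and 42.7 in non-foamy replicate 1. The means were 65.6 ± 18.4 CPM in foamy libraries and 29.4 ± 7.29 CPM in non-foamy ones (SD, n = 3), a log2 fold change of 1.16 (SE 0.29, edgeR adjusted p = 0.042). The call stood close to the threshold: leaving out foamy replicate 2 (log2 fold change 0.96) or 3 (1.15) ended it, as did leaving out non-foamy replicate 2 (1.19) or 3 (0.99), and scaling by total counts alone (0.89).

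Csf2rb had 113, 129 and 137 CPM in foamy libraries, against 82.9, 75.3 and 78.1 CPM in non-foamy libraries. The non-foamy values lie close together and below all foamy ones on this scale. In deposited CPM foamy replicate 1 (97.78) falls just below non-foamy replicate 1 (97.90). The log2 fold change of 0.68 (SE 0.19) missed the threshold (edgeR adjusted p = 0.062), and DESeq2 called it (0.68, adjusted p = 0.018). With the counts of both genes summed into 1 feature, which removes the question of how reads were split between them, the log2 fold change was 0.83 (SE 0.19, edgeR adjusted p = 0.029).

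Of 12 ligands and related receptors, Flt3l was not analysed. Of the 11 measured, 2 had enough reads to be tested, Il3ra and Kitl. Neither was called by edgeR, with 0 of them at an unadjusted p under 0.05 and 0 called by DESeq2 or limma-voom. Il3ra, the alpha chain gene of the interleukin-3 receptor that pairs with these beta chains, had 5.70, 4.12 and 0.86 CPM in foamy libraries and 1.73, 1.76 and 4.21 CPM in non-foamy ones. The groups overlap, and the log2 fold change was 0.47 (SE 0.82, edgeR adjusted p = 0.84).

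Csf3r (ENSMUSG00000028859, chromosome 4, 126024550 to 126044440, plus strand), the G-CSF receptor gene, had 25.1, 13.3 and 21.6 CPM in foamy libraries, against 6.55, 7.04 and 9.33 CPM in non-foamy libraries. The groups do not overlap, and foamy replicate 2 lies nearest to the non-foamy libraries. The means were 19.98 ± 6.07 CPM in foamy libraries and 7.64 ± 1.48 CPM in non-foamy ones (SD, n = 3). The log2 fold change of 1.38 (SE 0.38) was the largest among the members but missed the threshold (edgeR adjusted p = 0.063). DESeq2 called it (adjusted p = 0.010), as did edgeR without a filter on low counts (0.034) and with a stricter filter (0.047).

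Neutrophil genes were split beside Csf3r. The 11 neutrophil markers summed to 31.4 to 46.1 CPM in foamy libraries and 7.47 to 42.9 CPM in non-foamy ones, and 10 of them had reads. Mmp8, a collagenase gene, made up most of the foamy sum: it had means of 38.4 ± 7.60 CPM in foamy libraries and 5.62 ± 1.65 CPM in non-foamy ones (TMM-normalized, edgeR log2 fold change 2.77 ± 0.34 SE, adjusted p = 8.8e-04). The alarmin gene S100a9 was lower in foamy libraries (edgeR adjusted p = 0.0077), with 0, 0 and 0.05 deposited CPM in foamy libraries and 3.71, 18.3 and 1.34 CPM in non-foamy ones. Camp was at 0 in every library, and Ly6g, Ngp, Elane and Mpo stayed under 1 CPM in every library. Mmp8 and S100a9 were picked out after their values were seen.

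The order of the members was read from deposited RPKM, which scales reads to library size and exon length and so allows genes of different length to be compared. In foamy libraries Csf2ra led with 46.6 ± 2.41 RPKM, followed by Csf1r with 24.6 ± 1.84, Csf2rb with 24.2 ± 3.15, Csf2rb2 with 13.1 ± 4.34, Csf3r with 4.99 ± 1.29 and Csf1 with 1.05 ± 0.82 RPKM (SD, n = 3). The ranges of Csf1r and Csf2rb overlap, and those of the other neighbours do not. In non-foamy libraries Csf1r led with 71.1 ± 11.6 RPKM, followed by Csf2ra with 38.5 ± 8.65, Csf2rb with 18.2 ± 2.06, Csf2rb2 with 7.07 ± 2.21, Csf3r with 2.31 ± 0.31 and Csf1 with 0.62 ± 0.20 RPKM, and no neighbours overlap. Csf1r and Csf2ra thus swapped places at the top of the order.

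**Figure D2:**
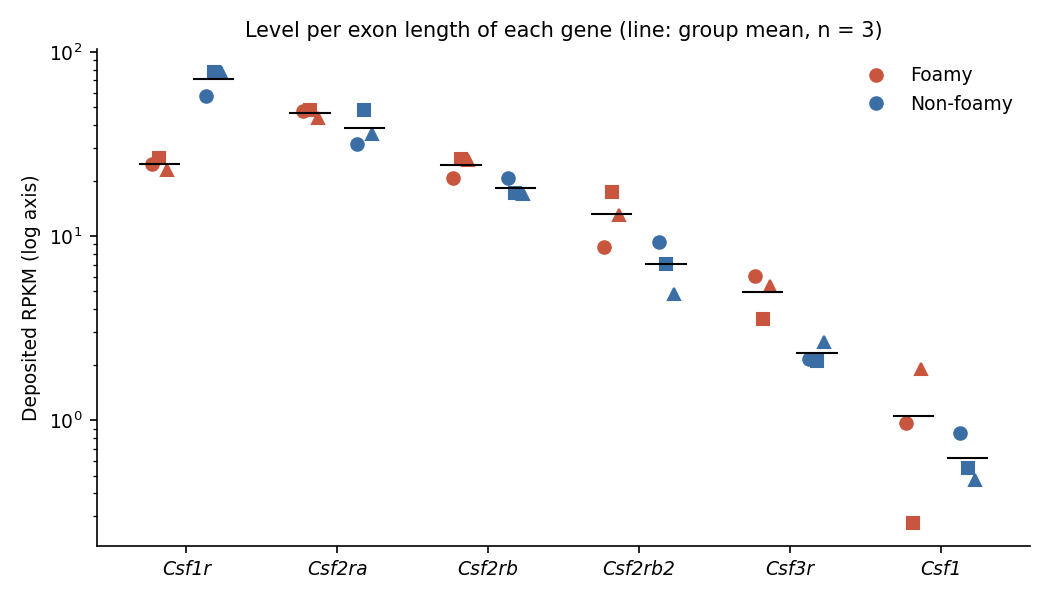
Deposited RPKM (log axis) of the 6 genes in foamy (red, left of each pair) and non-foamy (blue, right) libraries, with lines at the group means and symbols by replicate. Csf1r is below Csf2ra in foamy libraries, with means of 24.6 and 46.6 RPKM, and above it in non-foamy libraries, with means of 71.1 and 38.5 RPKM.

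Ratios taken within a library do not depend on how libraries are scaled to each other. Csf2ra over Csf1r was 1.96, 1.82 and 1.92 in foamy libraries, against 0.55, 0.62 and 0.46 in non-foamy libraries. The ratio was above 1 in each foamy library and below 1 in each non-foamy library. The difference of the mean log2 ratios was 1.82, 3.52-fold, with an exact two-sided permutation p of 0.10, the smallest that 3 against 3 libraries allow (0.27 adjusted over the 4 ratios tested).

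Csf1 over Csf1r, the ligand per receptor, was 0.040, 0.010 and 0.083 in foamy libraries, against 0.015, 0.0071 and 0.0061 in non-foamy libraries. These ranges overlap, through foamy replicate 2, and the difference of 1.92 on the log2 scale had an exact p of 0.20 (0.27 adjusted). Within the GM-CSF receptor, Csf2rb over Csf2ra was 0.43, 0.54 and 0.59 in foamy and 0.65, 0.35 and 0.47 in non-foamy libraries, overlapping ranges with an exact p of 0.70. Csf2rb2 over Csf2rb was 0.43, 0.67 and 0.50 in foamy and 0.45, 0.42 and 0.29 in non-foamy libraries, with an exact p of 0.20 (0.27 adjusted).

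**Figure D3:**
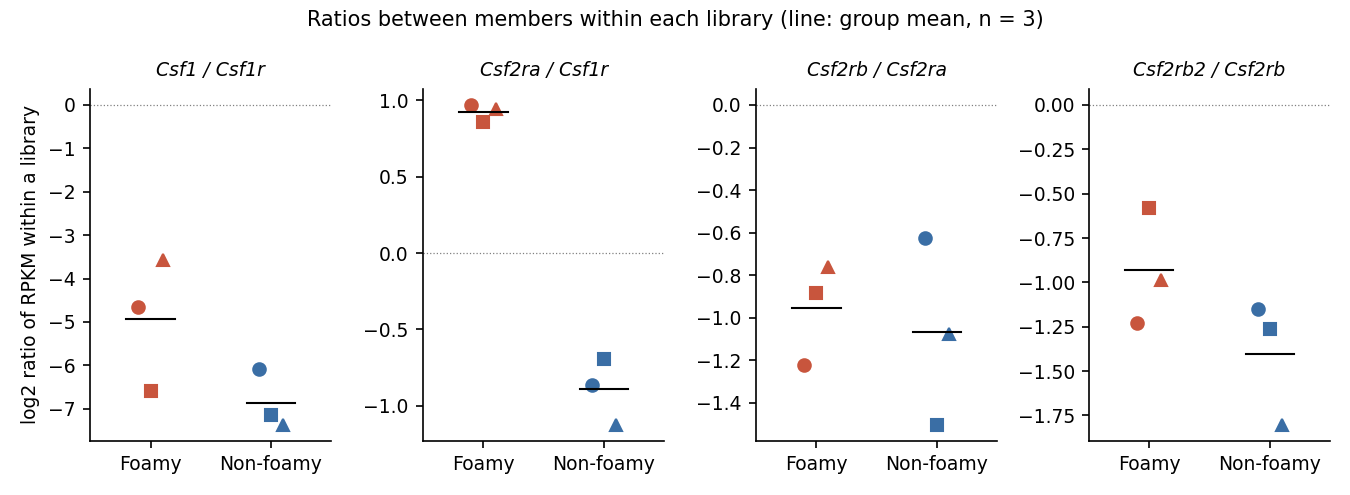
Log2 ratios of deposited RPKM between members, 1 point per library, in foamy (left, red) and non-foamy (right, blue) libraries, with lines at the group means and a dotted line where both genes are equal. Of the 4 ratios only Csf2ra over Csf1r separates the groups, with mean log2 values of 0.92 in foamy and -0.89 in non-foamy libraries.

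The promoters in RefSeq on GRCm38.p6, held for 4 of the 6 members (Csf1, Csf2ra, Csf2rb2 and Csf3r), were searched for 4 short motifs on both strands over the 250 bases before the start. GAGGAA, a core bound by PU.1 and other ETS factors that drive many myeloid genes, occurred in Csf2ra (2 matches next to each other), Csf2rb2 (1) and Csf3r (1), and in 23.3% of all 32851 promoters. TTCNNNGAA, the STAT motif, occurred in Csf2rb2, and in 7.02% of all promoters. The NF-kB motif occurred in Csf1, and in 0.356% of all promoters. TGANTCA, the AP-1 motif, was in none of the 4, and in 6.75% of all promoters. The promoters of Csf2ra and Csf2rb2 are shown as those of a GM-CSF receptor chain and of the called beta chain, each 5′ to 3′ on the gene's own minus strand, with GAGGAA or its reverse complement TTCCTC in capitals. They lie at chr19:61228419-61228668 and chr15:78305722-78305971.
Csf2ra: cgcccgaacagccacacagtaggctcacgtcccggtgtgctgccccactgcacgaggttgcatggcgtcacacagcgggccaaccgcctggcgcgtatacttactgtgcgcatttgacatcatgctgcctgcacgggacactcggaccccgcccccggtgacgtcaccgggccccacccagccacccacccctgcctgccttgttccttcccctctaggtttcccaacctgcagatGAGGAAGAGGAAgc
Csf2rb2: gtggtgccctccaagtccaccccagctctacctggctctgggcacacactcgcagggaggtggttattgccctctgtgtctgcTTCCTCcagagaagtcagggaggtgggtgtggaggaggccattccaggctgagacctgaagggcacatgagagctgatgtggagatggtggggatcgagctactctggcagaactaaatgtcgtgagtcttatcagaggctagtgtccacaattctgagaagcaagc
A match is a run of letters and not evidence of binding.

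Genes of signalling behind the receptors were taken from 2 lists, read beside the 5.41% of all genes tested that were called. Of 28 genes that carry or restrain the Csf1r signal, all tested, 1 was called higher and none lower in foamy libraries, with a median log2 fold change of 0.04. At an unadjusted edgeR p under 0.05, 6 were higher and 4 lower. The share of all genes at that unadjusted p was not counted, for this or the other lists. DESeq2 called 2 higher and 1 lower, and limma-voom 1 higher and 0 lower. The gene called higher was Grb2, an adaptor that couples the receptor to RAS, with 86.6 ± 10.2 CPM in foamy libraries and 39.7 ± 7.78 CPM in non-foamy ones (edgeR log2 fold change 1.13 ± 0.23 SE, adjusted p = 0.017). The value was 1.08 without foamy replicate 2, 1.09 without foamy replicate 3, 0.97 without non-foamy replicate 2 and 0.86 when scaled by totals alone, none of which passed the test. Tyrobp, which encodes the adaptor DAP12, had means of 2254 ± 212 CPM in foamy libraries and 1533 ± 574 CPM in non-foamy ones, and the kinase gene Lyn had 171 ± 25.4 CPM (foamy) and 240 ± 52.5 CPM (non-foamy). The groups overlap in both, and neither was called.

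The list of JAK2-STAT5 signalling below the common beta chain held 15 genes, of which 14 were tested. In foamy libraries 2 were called lower and none was called higher (median log2 fold change -0.42). Over all genes tested, 2.9% were called lower and 2.5% higher. Socs3, a feedback inhibitor of cytokine receptors, had means of 29.2 ± 3.78 CPM in foamy libraries and 98.0 ± 18.3 CPM in non-foamy ones (edgeR log2 fold change -1.75 ± 0.24 SE, adjusted p = 0.0016). Pim1, a survival kinase gene induced by STAT factors, averaged 279 ± 23.9 CPM in foamy cells and 808 ± 210 CPM in non-foamy cells (edgeR log2 fold change -1.53 ± 0.21 SE, adjusted p = 0.0016). Both calls held under all 15 alternatives. No gene of the list was higher at an unadjusted edgeR p under 0.05, and DESeq2 and limma-voom called 0 higher. Jak2 (log2 fold change -0.39), Stat5a (0.60) and Stat5b (0.57) were not called.

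Of 13 transcription factor genes whose products act on the Csf1r locus, all were tested. In foamy libraries 5 were called lower and none was called higher (median log2 fold change -0.97), beside the lower Csf1r. Of all genes tested, 2.9% were called lower and 2.5% higher. At an unadjusted edgeR p under 0.05, 9 were lower and 0 higher, and DESeq2 and limma-voom called 0 higher. Ets2 had means of 17.9 ± 2.20 CPM in foamy libraries and 86.6 ± 10.4 CPM in non-foamy ones (edgeR log2 fold change -2.27 ± 0.24 SE, adjusted p = 2.6e-04). Fos averaged 532 ± 37.3 CPM in foamy cells and 1044 ± 49.5 CPM in non-foamy cells (edgeR log2 fold change -0.97 ± 0.16 SE, adjusted p = 0.0050). Jun (-1.21), Ets1 (-1.74) and Cebpb (-1.19) were also called. Fos and Jun are immediate early genes, which tissue digestion can induce, and digestion ran for 70 min here. Its part was not tested. Spi1, which encodes PU.1, had 9.97, 13.5 and 8.58 CPM in foamy libraries, against 14.9, 23.4 and 37.0 CPM in non-foamy libraries, and was not called (edgeR log2 fold change -1.23 ± 0.39 SE, adjusted p = 0.10). Spi1 was picked out after its values were seen. Every foamy value was below every non-foamy one in 9 of the 13, and above in 2, against 13.3% and 12.4% of all genes tested. Those 2 were Cebpa (65.8 ± 8.87 CPM in foamy, 49.6 ± 6.20 in non-foamy) and Tfec (21.8 ± 2.60 in foamy, 14.6 ± 2.71 in non-foamy), and neither was called. The groups overlapped in Irf8 (log2 fold change 0.39) and Mitf (-0.03). The number called lower was 9 with total counts only, 2 without foamy replicate 3, and 3 when either of foamy replicates 1 and 2, or non-foamy replicate 2, was left out. DESeq2 gave 8.

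A list held 12 genes linked to GM-CSF in mouse myeloid cells, of which 11 were tested. In foamy libraries 4 were called lower and none was called higher (median log2 fold change -1.18). The shares over all genes tested were 2.9% lower and 2.5% higher. The genes of the GM-CSF receptor itself, Csf2ra and Csf2rb, were not called. Those called lower were the chemokine genes Ccl17, Ccl22 and Ccl24 and the proteoglycan gene Vcan, which is also a monocyte marker. Ccl17 and Ccl22 are known from dendritic cells too. The dendritic cell markers summed, as given above, to 0.29 to 15.4 CPM in foamy libraries and 34.6 to 275 CPM in non-foamy ones. Ccr7 of that list was at 0 in all foamy libraries and had 13.5, 3.14 and 0 deposited CPM in non-foamy ones. Clec9a of that list went the other way, as given above. The monocyte markers also summed lower in foamy libraries. The part of these cells in the list was not tested. Ccl17 had no counts in the foamy group and 214 in the non-foamy group, which makes it at least 66.0-fold lower at a floor of 3 counts over the foamy group. Ccl22 had 1 count in the foamy group and 164 in the non-foamy group, a ratio (non-foamy over foamy) of 152 with an exact 95% counting interval of 26.9 to 6034. Vcan had 1 foamy and 99 non-foamy counts, a ratio of 91.7 (16.1 to 3657). Ccl24 had means of 0.16 ± 0.06 CPM in foamy libraries and 7.16 ± 5.55 CPM in non-foamy ones (edgeR log2 fold change -5.45 ± 0.95 SE, adjusted p = 0.0071), and without non-foamy replicate 2 it was not called (-4.69). At an unadjusted edgeR p under 0.05, 5 genes of the list were lower and 2 higher, Itgax and Ear2. Itgax had 336 ± 19.0 CPM in foamy libraries and 211 ± 60.6 CPM in non-foamy ones (edgeR adjusted p = 0.10). Ear2 had 8.57 ± 0.20 CPM (foamy) and 2.84 ± 2.09 CPM (non-foamy, edgeR adjusted p = 0.18). In both, every foamy value was above every non-foamy one. DESeq2 called 1 gene of the list higher and limma-voom 0. The count of 4 lower was 1 when any single foamy replicate was left out and 0 without non-foamy replicate 2.

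Genes linked to M-CSF in macrophages were mixed. Of 12, 11 were tested, and 5 were called lower and 1 higher in foamy libraries (median log2 fold change -0.83). The shares over all genes tested were 2.9% lower and 2.5% higher. Mertk, a receptor for apoptotic cells, rose, with 112 ± 27.9 CPM in foamy libraries and 43.2 ± 5.85 CPM in non-foamy ones (edgeR log2 fold change 1.37 ± 0.24 SE, adjusted p = 0.0075). Cx3cr1, the fractalkine receptor gene, had the lowest adjusted p of the list, with 26.6 ± 1.70 CPM in foamy cells and 155 ± 10.98 CPM in non-foamy cells (edgeR log2 fold change -2.54 ± 0.20 SE, adjusted p = 5.6e-05). Lyve1 and Cd163, genes of resident-type macrophages, had log2 fold changes of -6.42 and -6.56, which were -4.97 and -5.14 without non-foamy replicate 2. The mannose receptor gene Mrc1 (-1.68) and Adgre1 (-0.83), which encodes F4/80, were the others. Leaving out any foamy replicate (-0.90, -0.68 and -0.88 for replicates 1 to 3) or non-foamy replicate 2 (-0.73) ended the Adgre1 call.

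**Figure D4:**
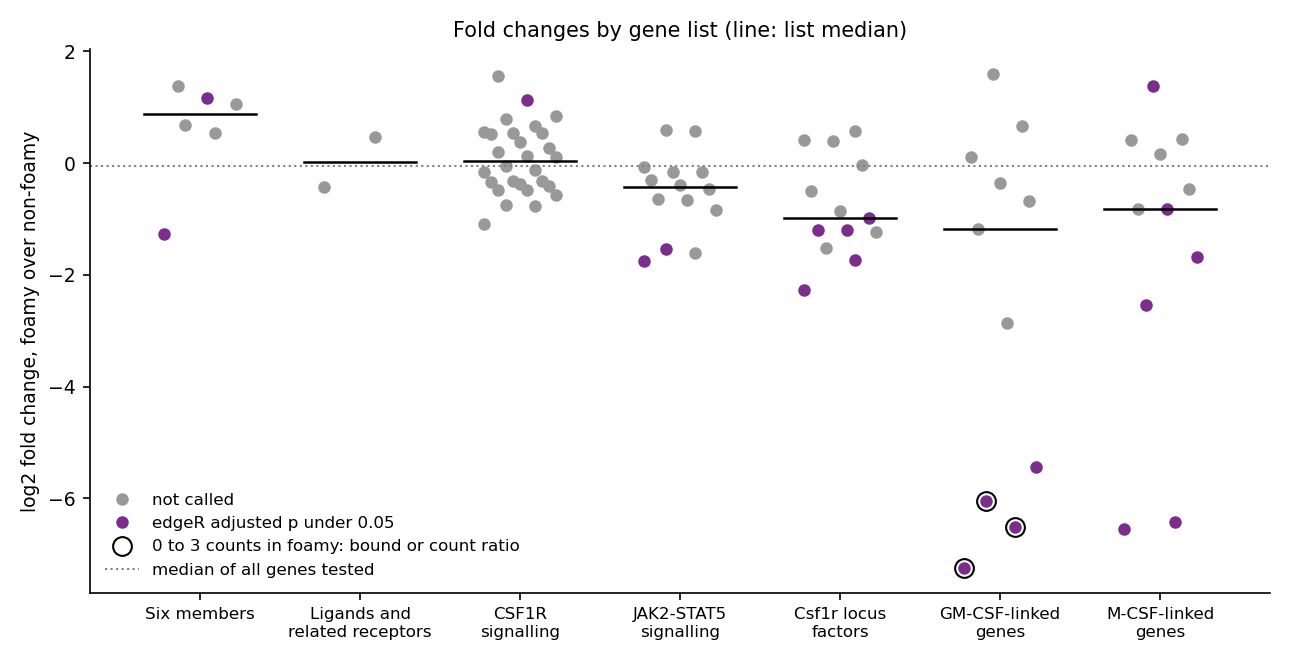
Log2 fold changes (foamy over non-foamy) of the 6 members and of the tested genes of each list, with purple points for an edgeR adjusted p under 0.05, lines at the medians and a dotted line at the median of all genes tested. Ringed points are genes with 0 to 3 counts over the foamy libraries, drawn at the bound or count ratio. The members have a median of 0.87 and a single point below 0, Csf1r at -1.28, while the medians of the 2 right-hand lists are -1.18 and -0.83.

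The genes whose pattern over the 6 libraries was most like that of a member were taken by Pearson's r of log2(TMM CPM + 1) among 5948 named genes with a mean of at least 10 CPM. The points share library and depth, and with 6 points a high r is easily reached, so these are descriptions. Ccl4, Retnla and Ch25h were nearest to Csf1r (r = 0.996 or more). Cd5l, Htra1 and Tcirg1 were nearest to Csf2rb (r = 0.995 or more), and Golga3, Scd1 and Atp6v1a to Csf2rb2 (r = 0.984 or more). Prpf31, Bbx and Spcs2 were nearest to Csf2ra (r = 0.991 or more), and Tsg101, Atg5 and Tcta to Csf3r (r = 0.990 or more). Araf, Acot2 and Ttc5 were nearest to Csf1 (r = 0.959 or more).

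**Figure D5:**
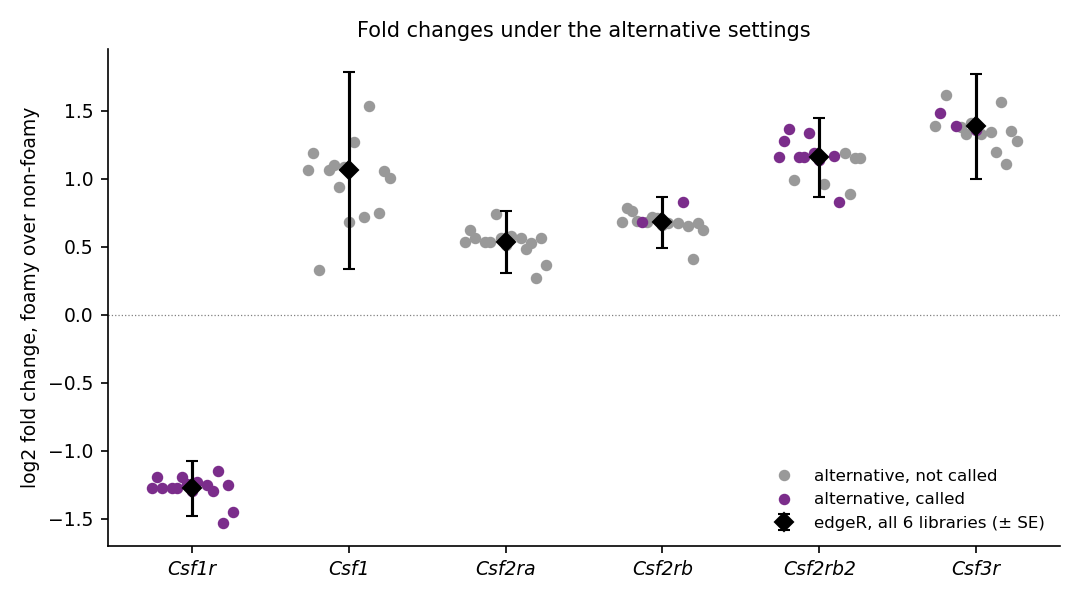
Log2 fold change (foamy over non-foamy) of each member from edgeR with all 6 libraries (black diamond, bar ± SE) and under each alternative setting (dots, purple where called). For Csf2rb and Csf2rb2, 1 dot is the sum of both genes. Csf1r is called in all 15 alternatives, Csf2rb2 in 10 of 16, Csf3r in 3 of 15, Csf2rb in 2 of 16, and Csf2ra and Csf1 in none.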

How the data were processed

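The authors deposited whole-number counts of reads per gene with CPM and RPKM. GRCm38, featureCounts 1.4.5, Subread and STAR 2.0.4b appear in the submitters' processing notes. The sources used here give no strand setting, annotation release or treatment of multi-mapping reads. The deposited CPM is the count scaled to the library's total in genes, and the deposited RPKM that CPM per kilobase of exon, both checked to 1e-06. Symbols were found for 97.3% of IDs, and Flt3l was not analysed here. The main test was edgeR 4.0.16 in R 4.3.3 (quasi-likelihood F-test with robust dispersions, TMM factors, genes kept by filterByExpr), fitted on all genes with p-values adjusted by Benjamini-Hochberg over the 11303 tested, and the SE is the absolute log2 fold change over the square root of F. The biological coefficient of variation was 0.505. TMM factors were 0.868 to 0.966 in foamy and 1.03 to 1.19 in non-foamy libraries. Within-group chi-square per degree of freedom was at least 54.5, so no libraries agreed within sampling noise.

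Alternatives were other scalings, DESeq2 1.42.0, limma-voom 3.58.1, other filters, a replicate block, leaving out mitochondrial and ribosomal protein genes, the beta chain genes summed and each library left out. Intervals and floors cover counting error only, since the protocols name no molecular identifiers. The procedure was tested on simulated data.

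Members and lists were chosen with earlier results of these data known. Named were all members, all ligands and related receptors tested, up to 5 called genes per direction in each other list (or the 2 most abundant where under 2 were called), and the 3 genes most like each member. Others were picked after their values were seen.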

Additional observations from a re-analysis of the deposited data

How the results depend on the processing

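Csf1r was lower and called under all 15 alternatives, and no member changed direction in any. Csf2rb2 was not called with total counts only (log2 fold change 0.89), and ranged from 0.96 to 1.36 with 1 library left out. Csf2rb was called with DESeq2 (0.68) and summed with Csf2rb2 (0.83), and Csf3r with DESeq2 (1.39), no filter (1.48) and the stricter filter (1.36). With 1 library left out, Csf1 ranged from 0.33 to 1.53, Csf1r from -1.45 to -1.15, Csf2ra from 0.37 to 0.74, Csf2rb from 0.62 to 0.76 and Csf3r from 1.196 to 1.62. Of values that were not called, Csf2rb over Csf2ra changed sign (from -0.11 to 0.33 on the log2 scale), as did Il3ra (-0.041 without foamy replicate 1, up to 1.04) and Kitl (0.18 without non-foamy replicate 1, down to -0.96). Kitl, the stem cell factor gene, had means of 14.7 ± 8.04 CPM in foamy libraries and 19.8 ± 11.9 CPM in non-foamy ones.

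Of all genes, 611 were called, with 283 higher and 328 lower. With total counts only, 165 were higher against 614 lower, with the median over genes tested at -0.31 in place of -0.04, so the members' values under that scaling are to be read against this shift. DESeq2 gave 1173 (528 and 645), and no filter gave 457 higher. Leaving out 1 library gave 271 to 579 in all, 113 to 285 higher and 158 to 294 lower. The labels do not say whether the libraries' numbers pair them. The correlations of same-numbered libraries' deviations from their group means were -0.122, -0.033 and -0.048. With group means of only 3 libraries, these cannot settle whether libraries were paired. With that number as a replicate block 391 genes were called (159 higher). Csf2rb2 (1.15), Grb2 (1.14), Adgre1 (-0.84), Jun (-1.21), Ets1 (-1.66), Cebpb (-1.25) and Vcan were then not called. The GM-CSF list had 1 gene called lower with limma-voom. It had 0 with the stricter filter, which left Ccl17, Ccl22, Ccl24 and Vcan out before the test, so they could not be called there. The M-CSF list had 3 lower with limma-voom, which did not call Lyve1 (-5.74) or Cd163 (-5.64). Beside the calls whose loss with 1 library left out is given in the report (Csf2rb2, Grb2, Ccl24 and Adgre1), those of Ccl17 and Ccl22 were lost when any single foamy replicate or non-foamy replicate 2 was left out, and that of Vcan when any single library was. Also lost were those of Jun (-1.21, -1.29 and -1.10 without foamy replicates 1 to 3, -1.20 and -1.11 without non-foamy replicates 2 and 3), Ets1 (-1.68, -1.55 and -2.01 without foamy replicates 1 to 3, -1.21 without non-foamy replicate 1) and Cebpb (-0.99 and -1.07 without foamy replicates 1 and 3, -1.08, -1.28 and -1.17 without non-foamy replicates 1 to 3). The causes were not tested. Csf1 was not in the stricter filter's table, and its low counts limit its precision.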
